A study of Mus musculus with 16 samples.

Results

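Apoptosis regulators of the Bcl2 family were followed in engrafted brain macrophages and host microglia of bone marrow chimeras, with and without a challenge by the bacterial endotoxin lipopolysaccharide (LPS). The family was taken by symbol from the table of read counts, and all 9 genes sought were present among its 24411 genes. They were the anti-apoptotic genes Mcl1, Bcl2l1 (Bcl-xL), Bcl2, Bcl2a1a, Bcl2a1b and Bcl2a1d, the effector Bak1, and the BH3-only genes Bcl2l11 (Bim) and Bid. The choice was made by symbol and not by level, but with earlier results of these data known.

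The recipients were wild-type C57BL/6J mice that had been irradiated with 950 cGy at 6 weeks of age and given wild-type bone marrow carrying the CD45.1 allele. Mice 1 to 4 were injected with LPS at 2.5 mg/kg and killed 12 h later, and mice 5 to 8 were not injected. From the brain of each mouse, CD11b-positive cells negative for Ly6C/G were sorted by low CD45.1 (engrafted cells) or low CD45.2 (host microglia), which gave 16 libraries in 4 groups of 4. The interval between transplantation and sorting was 9 months by the methods and 3.5 or 9 months by the labels, which do not tie a time to a library. Host microglia had been through the irradiation and engrafted cells had not, and the controls received no vehicle, so origin and irradiation, or LPS and injection, cannot be told apart here.

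Libraries held between 395283 (engrafted cells, LPS, mouse 4) and 1203597 reads on genes, with a median of 820587.5. Values are given as CPM, read counts per library scaled by TMM and expressed relative to a common total, and the limit that a count of 0 allows (3 reads) corresponded to 2.39 to 8.41 CPM. The labels held in the population markers, since Ms4a7 averaged 539 and 270 CPM in engrafted cells without and with LPS against 8.41 and 5.07 CPM in host microglia. Sall1, a microglial transcription factor, averaged 17.3 and 8.61 CPM against 321 and 104 CPM. The summed level of 4 red blood cell markers was 4478 and 6128 CPM in the engrafted libraries of mice 8 and 4 and 710 and 779 CPM in their host libraries, against 2.60 to 157 CPM in the others. Each member's comparison was therefore also run without mice 4 and 8, and the part of these markers in the results was not tested beyond that. Among the markers, Hba-a1 and Hba-a2 had nearly equal levels. They averaged 409 and 408 CPM in control engrafted cells and 465 and 464 CPM in engrafted cells with LPS. In host microglia both averaged 57.7 CPM without and 68.2 CPM with LPS. Whether both hold the same reads was not tested, and if so the summed level counts them more than once.

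Proteins of this family decide whether the outer mitochondrial membrane stays intact. Anti-apoptotic members bind and restrain the effectors Bak and Bax, and BH3-only proteins such as Bim and Bid antagonise the former or activate the latter, after which cytochrome c is released, Apaf1 assembles and caspases are activated. In macrophages, A1 (the Bcl2a1 genes) is known as a target of inflammatory signalling through NF-kappaB, and Mcl1 turns over quickly at both the RNA and the protein level.

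The Bcl2a1 genes are close copies of one another on chromosome 9, and their near identity bears on every value given for them. The deposited table places Bcl2a1d at chr9:88618126-88626688 on the minus strand, and Bcl2a1a at chr9:88851758-88857254 and Bcl2a1b at chr9:89094111-89102676 on the plus strand (mm9). In the annotation of the same build, each coding sequence spanned 516 bases. Bcl2a1a and Bcl2a1b differed at 11 of these bases (97.87% identity), Bcl2a1a and Bcl2a1d at 7 (98.64%), and Bcl2a1b and Bcl2a1d at 6 (98.84%). The coding part of the last exon is shown because the libraries capture the 3′ end of transcripts. It is 96 bases long, and the single base that differs among the genes, in capitals, is A490T when counted from the first base of the Bcl2a1a coding sequence and read from Bcl2a1a to Bcl2a1b.
Bcl2a1a, chr9:88857010-88857105, plus strand: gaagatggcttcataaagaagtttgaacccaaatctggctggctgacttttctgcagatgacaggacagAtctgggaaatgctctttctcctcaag
Bcl2a1b, chr9:89102420-89102515, plus strand: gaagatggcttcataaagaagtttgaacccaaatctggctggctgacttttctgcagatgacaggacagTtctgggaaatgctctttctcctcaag
Bcl2a1d, chr9:88618275-88618370, minus strand: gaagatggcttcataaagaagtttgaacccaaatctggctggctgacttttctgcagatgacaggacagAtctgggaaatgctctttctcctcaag
Only reads that mapped to 1 place were counted, so a read is credited to one of these genes only where it covers a differing base. Among all 50-base windows of each transcript, 31.2% in Bcl2a1a, 42.6% in Bcl2a1b and 16% in Bcl2a1d were unlike any window of the other Bcl2a1 genes, Bcl2a1c included. In the last 300 bases the shares were 36.7%, 26.3% and 6.4%. The shares depend on the window, and the read length is not given in the sources used here. For 30-base windows they were 19.8%, 25.8% and 5.5% of the transcripts, and for 75-base windows 45.0%, 56.7% and 28.6%. Levels of the 3 genes can therefore be compared between groups but not with one another, and their sum is given beside them.

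The 250 bases upstream of the annotated starts were also compared, using RefSeq windows of GRCm38.p6, which matched all 9 genes in 12 windows. The AP-1 motif TGANTCA, searched on both strands, was present in the windows of all 3 Bcl2a1 genes and of no other member. It is shown in capitals within the shared 5′ stretch.
Bcl2a1a, chr9:88956770-88956836, plus strand: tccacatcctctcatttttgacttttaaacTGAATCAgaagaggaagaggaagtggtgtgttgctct
Bcl2a1b, chr9:89199079-89199145, plus strand: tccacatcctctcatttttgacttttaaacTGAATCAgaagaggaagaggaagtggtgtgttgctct
Bcl2a1d, chr9:88731928-88731994, minus strand: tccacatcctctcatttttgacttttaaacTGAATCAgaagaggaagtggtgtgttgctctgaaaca
The first base of the motif lies 120, 164 and 114 bases before the start of Bcl2a1a, Bcl2a1b and Bcl2a1d. Of the 32851 promoter windows in the reference table, 6.75% held this motif. The consensus of NF-kappaB was matched once, in 1 of the 3 windows of Bcl2l1, and was present in 7.25% of all windows. These matches describe the letters of the windows and were not tested as binding sites.

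Without LPS, engrafted cells and host microglia differed in several members, and in both directions within the anti-apoptotic group and within the BH3-only group. Of the 9 members, 8 had enough reads to be tested in every comparison, and Bcl2a1d had not. Here 5 of the 8 passed the test (adjusted p below 0.05), 2 higher and 3 lower in engrafted cells, where 27.3% of the 8042 genes tested did. A change over 2-fold was found for 3 of the 8, against 11.0% of all genes tested. The median log2 fold change of the 8 was -0.18, beside 0.02 over all genes tested.

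**Figure D1:**
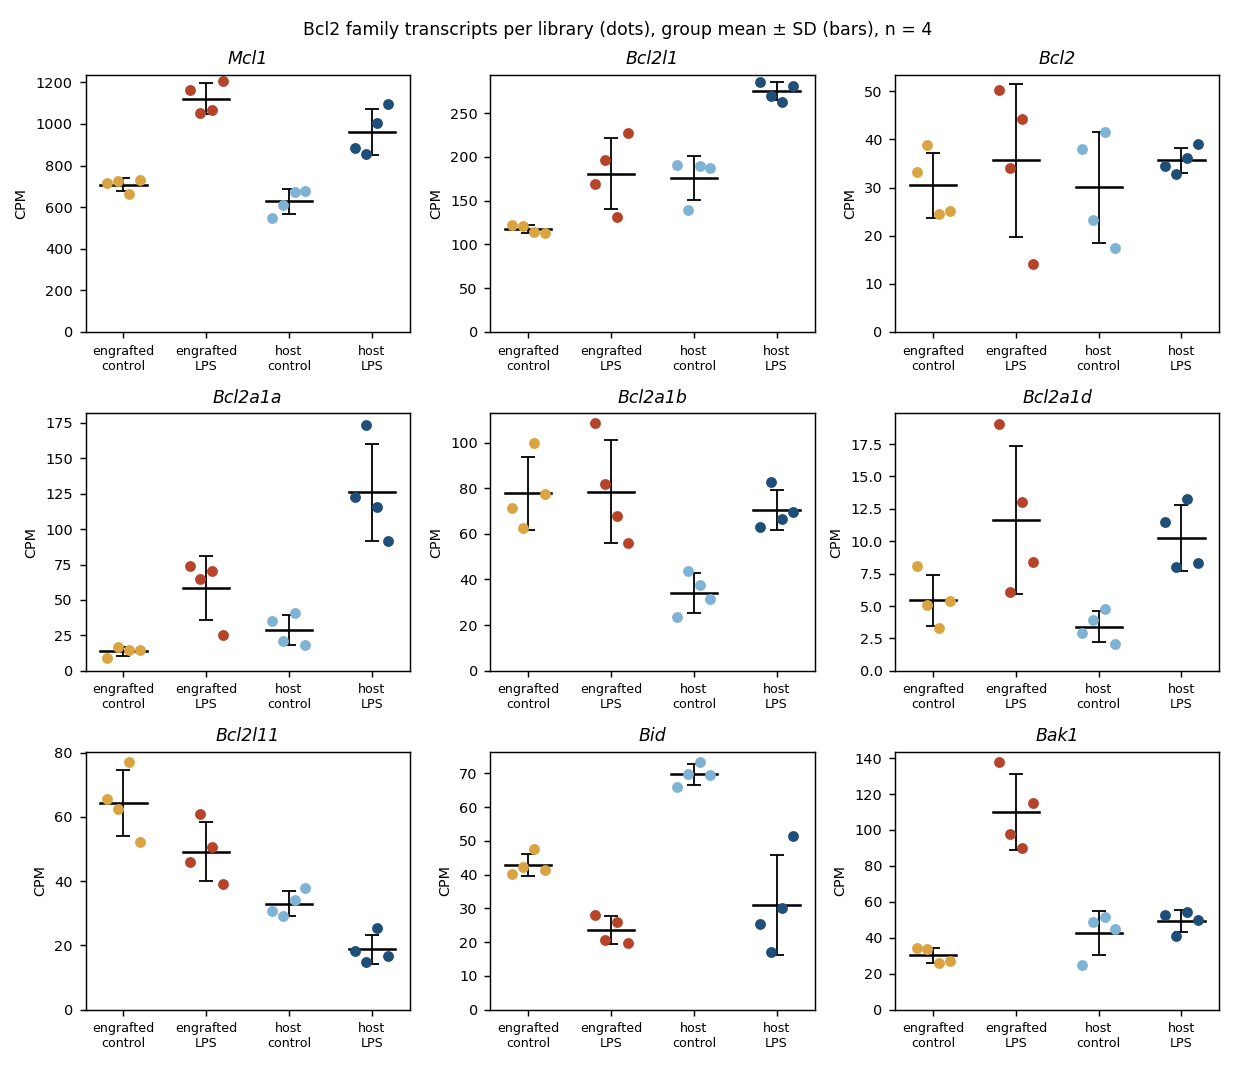
Level of each member in CPM (vertical axis, linear, starting at 0) in the 16 libraries, with dots for libraries in order of mouse number and black bars for the mean ± SD of each group of 4. Bak1 stands at 89.8 to 138 CPM in engrafted cells after LPS and at or below 54.3 CPM in every other library, and Bcl2a1b is lower in control host microglia than in any other group.

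Under LPS, 3 of the 8 members passed between the populations, all of them over 2-fold, where 17.1% of the 7843 genes tested passed and 11.1% passed and changed over 2-fold. Their median log2 fold change was 0.16, beside -0.01 over all genes. LPS itself changed 5 of the 8 in engrafted cells, 2 of them over 2-fold, where 38.7% of the 7609 genes tested passed and 21.5% also changed over 2-fold. In host microglia it changed 6 of the 8, 3 of them over 2-fold, where 39.7% of the 8238 genes tested passed and 18.0% also changed over 2-fold. The medians of the 8 under LPS were 0.41 and 0.42 in engrafted cells and host microglia, beside -0.01 and 0.01 over all genes. The difference between both LPS effects, tested as the interaction of population and LPS on all 16 libraries, passed for Bak1 and Bcl2a1b, where 5.88% of the 8847 genes tested passed and 4.95% also differed over 2-fold. The 5 comparisons share libraries, so their counts are not independent of one another.

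**Figure D2:**
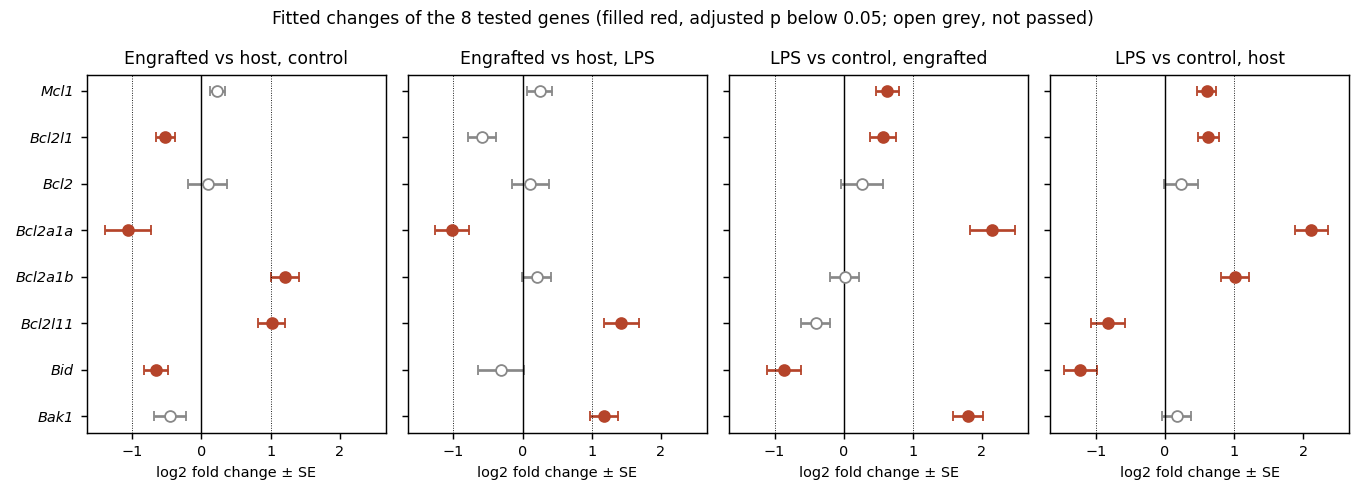
Fitted log2 fold change with its SE (horizontal axis) for the 8 tested members in 4 comparisons, 1 panel each, with dotted lines at 2-fold and filled red points at an adjusted p below 0.05. Bcl2a1a rose by a similar amount with LPS in both populations (2.15 and 2.11), whereas Bak1 moved by 1.80 in engrafted cells and by 0.17 in host microglia.

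Mcl1 (chr3:95462643-95467101), which restrains Bak and binds Bim, rose with LPS in both populations. Engrafted cells held 715, 725, 664 and 729 CPM in control mice 5 to 8 and 1163, 1054, 1066 and 1205 CPM in LPS mice 1 to 4. Host microglia held 549, 609, 674 and 677 CPM without LPS and 884, 858, 1003 and 1098 CPM with it. Every LPS library lay above every control library, and engrafted and host libraries overlapped in both conditions. The rise was 0.63 on the log2 scale in engrafted cells (SE 0.17, adjusted p = 0.00526) and 0.60 in host microglia (SE 0.14, adjusted p = 0.00165), and the interaction was 0.01 (95% interval -0.41 to 0.43). Between populations the log2 difference was 0.23 without LPS (adjusted p = 0.138) and 0.25 with it (adjusted p = 0.41). In the order of the 4 group means, engrafted cells with LPS (1122 CPM), host microglia with LPS (961 CPM), control engrafted cells (708 CPM) and control host microglia (627 CPM), only the step between the second and the third was free of overlap (exact permutation p = 0.0286, two-sided, the smallest that 4 against 4 libraries allow).

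Bcl2l1 (chr2:152606400-152656453, minus strand), which encodes Bcl-xL, was higher in host microglia and also rose with LPS. Control engrafted cells lay closely together at 122, 121, 115 and 113 CPM in mice 5 to 8, and engrafted cells with LPS at 169, 196, 131 and 227 CPM in mice 1 to 4. In host microglia the controls stood at 190, 139, 190 and 187 CPM and the LPS libraries at 286, 270, 263 and 281 CPM. Groups of the same population did not overlap, and neither did the populations within a condition. Without LPS engrafted cells were lower by a log2 fold change of -0.52 (SE 0.14, adjusted p = 0.00648). With LPS the difference was -0.59 (SE 0.20), which did not pass the test (adjusted p = 0.0538). With the mouse as a block, which pairs both libraries of an animal, the latter was -0.61 and passed (adjusted p = 0.0234). It also passed without the engrafted library of mouse 4 (-0.71, adjusted p = 0.0073) and without mice 4 and 8 (-0.71, adjusted p = 0.0114).

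The LPS effect on Bcl2l1 was 0.56 in engrafted cells (SE 0.19, adjusted p = 0.0229) and 0.63 in host microglia (SE 0.15, adjusted p = 0.00152), with an interaction of -0.07 (95% interval -0.58 to 0.43). In engrafted cells the call was lost without the LPS library of mouse 2 (adjusted p = 0.0555), the control library of mouse 7 (0.0532) or that of mouse 8 (0.0569), and without mice 4 and 8 (0.42, adjusted p = 0.0712). The order of the means ran from host microglia with LPS (275 CPM) over engrafted cells with LPS (181 CPM) and control host microglia (177 CPM) to control engrafted cells (118 CPM). The middle pair overlapped (exact permutation p = 0.886), and the outer steps did not (exact permutation p = 0.0286 for both). Both outer steps compare libraries of the same mice, which this test did not pair.

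Bcl2 itself (chr1:108434753-108610867, minus strand), the founding member of the family, was read 5 to 52 times per library and showed no difference that passed. Control engrafted libraries ranged from 24.6 to 38.8 CPM and control host libraries from 17.4 to 41.5 CPM. With LPS the ranges were 14.0 to 50.3 CPM and 32.9 to 39.0 CPM, so all 4 groups overlapped. Fitted differences lay between 0.09 and 0.26 in the 4 comparisons. Their 95% intervals were widest for LPS in engrafted cells, from -0.36 to 0.89, so changes within that range were not excluded. The microRNA gene Mir3473f lies within Bcl2 on the same strand.

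The Bcl2a1 genes differed from one another in their patterns. Bcl2a1a was at 9.07, 16.9, 14.8 and 14.4 CPM in control engrafted cells of mice 5 to 8 (8 to 10 reads) and at 73.8, 64.7, 70.3 and 25.2 CPM in LPS mice 1 to 4. Host microglia held 35.1, 21.4, 40.7 and 18.4 CPM without LPS and 123, 174, 116 and 91.8 CPM with it. Groups did not overlap within a population or within a condition, and the lowest engrafted LPS library was the shallowest of all, that of mouse 4 with 9 reads. LPS raised Bcl2a1a by 2.15 on the log2 scale in engrafted cells (SE 0.32, adjusted p = 2.45e-05) and by 2.11 in host microglia (SE 0.24, adjusted p = 3.91e-07). The interaction was 0.04 (95% interval -0.72 to 0.79).

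Bcl2a1a was lower in engrafted cells than in host microglia in both conditions. The log2 difference was -1.06 without LPS (SE 0.33, adjusted p = 0.019) and -1.02 with LPS (SE 0.25, adjusted p = 0.00718). The former did not pass without the engrafted library of mouse 5 (-0.84, adjusted p = 0.0842) or the host library of mouse 7 (-0.81, adjusted p = 0.11). Host microglia with LPS were highest at 126 CPM, followed by engrafted cells with LPS at 58.5 CPM and control host microglia at 28.9 CPM, which overlapped each other (exact permutation p = 0.0857), and by control engrafted cells at 13.8 CPM.

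Bcl2a1b had the reverse population difference and rose with LPS in host microglia. Control engrafted cells held 71.5, 62.4, 99.9 and 77.4 CPM and engrafted cells with LPS 109, 81.7, 67.7 and 56.1 CPM. Control host microglia held 23.4, 43.7, 37.5 and 31.7 CPM, and host microglia with LPS 63.1, 82.8, 66.4 and 69.6 CPM. All control host libraries lay below every other library, and the other 3 groups overlapped one another. Engrafted cells were higher without LPS by 1.21 on the log2 scale (SE 0.20, adjusted p = 4.37e-05), and with LPS the difference was 0.20 (adjusted p = 0.583).

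LPS raised Bcl2a1b by 1.01 in host microglia (SE 0.20, adjusted p = 0.000342), while the value in engrafted cells was 0.01 (95% interval -0.44 to 0.46, adjusted p = 0.975). The interaction was -1.01 (SE 0.29, adjusted p = 0.0398). Leaving out 1 library removed this call in 10 of 16 cases, namely the LPS libraries of engrafted mice 2 and 3 and host mice 2, 3 and 4, and the control libraries of host mice 5, 7 and 8 and engrafted mice 7 and 8. The weakest of these was without engrafted mouse 7 (-0.83, adjusted p = 0.131), and without mice 4 and 8 it was -0.83 (adjusted p = 0.169).

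Neutrophils are rich in A1, and neutrophil markers were present in the engrafted libraries. The summed level of 9 neutrophil markers was 266 to 1240 CPM in control engrafted cells, 48.8 to 508 CPM in engrafted cells with LPS, 0 to 2.39 CPM in control host microglia and 9.66 to 15.0 CPM in host microglia with LPS. S100a8 and S100a9 carried most of it. In engrafted cells without and with LPS, Ngp averaged 96.7 and 80.1 CPM and Camp 59.4 and 18.7 CPM. Ltf averaged 38.1 and 6.24 CPM there, and Retnlg 24.6 and 6.55 CPM. Ngp, Camp, Ltf and Retnlg each averaged at most 0.65 CPM in either host group. Ly6g, whose product the sort gated against, averaged 0.252 and 1.35 CPM in engrafted cells without and with LPS. It was at 0 in both host groups. Cxcr2 was at 0 in control engrafted cells, and Retnlg and Mmp8 were at 0 in both host groups. Mmp8 averaged 0.252 CPM in engrafted cells without and 26.8 CPM with LPS. In control engrafted cells of mice 5 to 8 the sums were 305, 541, 1240 and 266 CPM, so mouse 7 had the highest sum and the highest Bcl2a1b, and mouse 6 the second highest sum and the lowest Bcl2a1b. In engrafted cells with LPS of mice 1 to 4 they were 508, 48.8, 409 and 412 CPM, so mouse 1 had the highest sum and the highest Bcl2a1b, and mouse 2 the lowest sum and the second highest Bcl2a1b. The part of these markers in the Bcl2a1 values was not tested, and in sorted bulk samples fewer cells of a type and less RNA per cell cannot be told apart.

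**Figure D3:**
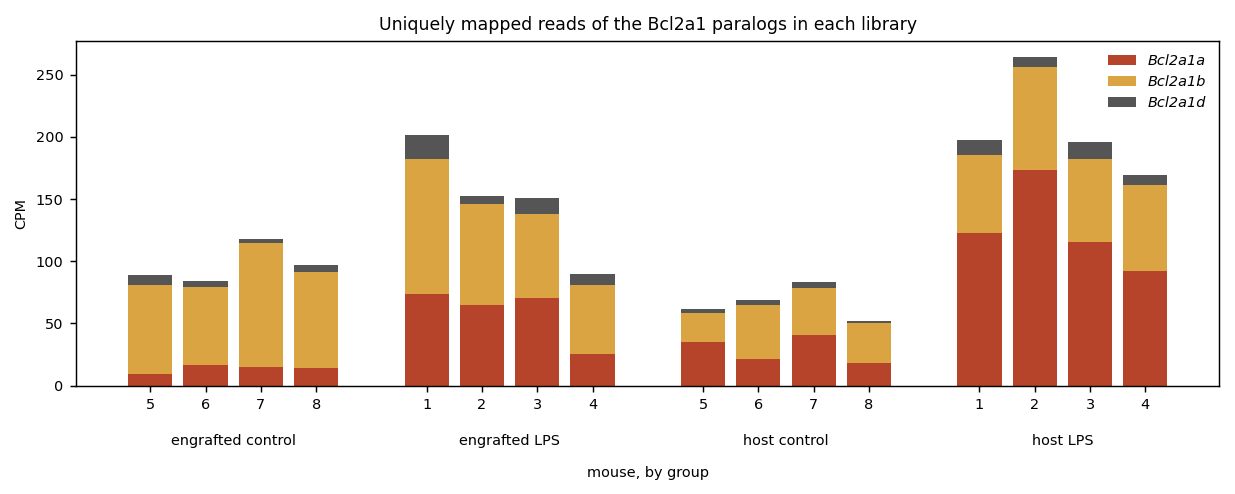
Stacked CPM (vertical axis, linear, starting at 0) of Bcl2a1a, Bcl2a1b and Bcl2a1d in each of the 16 libraries, ordered by group and mouse number. The Bcl2a1a segment is taller with LPS than without it in both populations, and the Bcl2a1b segment is shorter in control host microglia (23.4 to 43.7 CPM) than in the other groups; heights of different genes are not comparable within a bar.

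Bcl2a1d was read only 2 to 17 times per library. It stood at 8.06, 5.06, 3.28 and 5.40 CPM in control engrafted cells, at 19.0, 6.10, 13.01 and 8.41 CPM in engrafted cells with LPS, at 2.93, 3.89, 4.79 and 2.04 CPM in control host microglia, and at 11.5, 7.98, 13.3 and 8.35 CPM in host microglia with LPS. Several of these are at or under 3 reads. Host LPS libraries lay above host controls without overlap (exact permutation p = 0.0286, two-sided), and engrafted libraries overlapped (exact permutation p = 0.0571). A further copy, Bcl2a1c, had no read in any library.

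The sum of the uniquely mapped reads of the Bcl2a1 genes rose with LPS in both populations, but in engrafted cells not in every fit. It still weights the genes by how much of each can be mapped uniquely, and so depends on which of them a group expresses. The sums were 88.6, 84.3, 118 and 97.2 CPM in control engrafted cells, 201, 153, 151 and 89.7 CPM in engrafted cells with LPS, 61.5, 69.0, 83.0 and 52.1 CPM in control host microglia, and 197, 264, 196 and 170 CPM in host microglia with LPS. Host groups did not overlap, and engrafted LPS overlapped engrafted control only through the library of mouse 4. The log2 change with LPS was 1.62 in host microglia (SE 0.18, adjusted p = 2.26e-07) and 0.61 in engrafted cells (SE 0.21, adjusted p = 0.0251), and the interaction was -1.02 (SE 0.28, adjusted p = 0.0267).

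Control engrafted cells exceeded control host microglia in the sum by 0.58 (SE 0.17, adjusted p = 0.00988), and with LPS the difference was -0.44 (adjusted p = 0.206). The control difference was lost without engrafted mouse 7 (0.48, adjusted p = 0.0582) and without mice 4 and 8 (0.47, adjusted p = 0.0682). The engrafted LPS effect was lost without LPS mouse 1 (0.45, adjusted p = 0.117) or control mouse 5 (0.0825), 6 (0.0766) or 8 (0.054). The interaction was lost without the LPS library of engrafted or host mouse 2 (adjusted p = 0.0501 for both), the control library of host mouse 6 (0.0557) or 8 (0.0758) or of engrafted mouse 7 (0.0891) or 8 (0.0515), and without mice 4 and 8 (-0.84, adjusted p = 0.0718). Only the rise in host microglia passed in every fit.

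Bak1 (chr17:27156757-27165571, minus strand), which encodes the effector that forms pores in the outer mitochondrial membrane, rose with LPS in engrafted cells. Control engrafted cells held 34.3, 33.7, 26.2 and 27.0 CPM and engrafted cells with LPS 138, 97.6, 89.8 and 115 CPM. Host microglia held 24.9, 48.6, 51.8 and 44.9 CPM without LPS and 52.8, 40.9, 54.3 and 50.1 CPM with it. The engrafted LPS libraries lay above all 12 others, and the host groups overlapped. The change with LPS was 1.80 on the log2 scale in engrafted cells (SE 0.22, adjusted p = 2.19e-06) and 0.17 in host microglia (95% interval -0.27 to 0.61, adjusted p = 0.564).

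The interaction for Bak1 was 1.62 (SE 0.31, adjusted p = 0.00127). It passed in each of the 16 fits that left out 1 library and without mice 4 and 8, with values from 1.48 to 1.79. Under LPS engrafted cells exceeded host microglia by 1.17 (SE 0.20, adjusted p = 0.000375), and without LPS the difference was -0.45 (SE 0.23, adjusted p = 0.162). The latter passed only when the host library of mouse 5, the lowest of its group, was left out (-0.61, adjusted p = 0.0448). That library also had the highest summed level of neuronal markers, 127 CPM, against at most 42.1 CPM in any other library. The part of these markers in its Bak1 level was not tested. Host microglia with LPS (49.5 CPM), control host microglia (42.6 CPM) and control engrafted cells (30.3 CPM) followed engrafted cells with LPS (110 CPM) in order, and neighbours among those 3 overlapped (exact permutation p = 0.4 and 0.143). Ggnbp1 overlaps Bak1 on the opposite strand, and reads were counted on the sense strand.

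Monocyte markers moved with the same contrast. The summed level of 6 of them was 108 to 157 CPM in control engrafted cells, 1093 to 2245 CPM in engrafted cells with LPS, 3.19 to 21.5 CPM in control host microglia and 18.0 to 50.1 CPM in host microglia with LPS. Ly6c2, whose product the sort gated against, averaged 30.1 CPM without and 716 CPM with LPS in engrafted cells. In host controls Chil3 was at 0. The part of these markers in the Bak1 result was not tested, nor was it in any other result that includes engrafted cells with LPS.

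Bcl2l11 (chr2:127951774-127988283) encodes Bim, a BH3-only protein that binds all anti-apoptotic members, and was higher in engrafted cells in both conditions. Engrafted cells held 65.5, 62.4, 77.0 and 52.2 CPM without LPS and 45.9, 61.0, 50.7 and 39.3 CPM with it. Host microglia held 30.7, 29.1, 34.3 and 37.8 CPM without LPS and 18.4, 15.0, 25.4 and 16.7 CPM with it. Every engrafted library lay above every host library. The difference was 1.02 without LPS (SE 0.19, adjusted p = 0.000198) and 1.43 with LPS (SE 0.26, adjusted p = 0.000528).

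With LPS, Bcl2l11 fell in host microglia by a log2 change of -0.83 (SE 0.24, adjusted p = 0.00912), a call that was lost without mice 4 and 8 (-0.72, adjusted p = 0.0519). In engrafted cells the change was -0.41 (SE 0.21, adjusted p = 0.139) and the groups overlapped. The interaction was 0.41 (95% interval -0.22 to 1.05, adjusted p = 0.513), so the LPS effects were not shown to differ. Control engrafted cells (64.3 CPM) and engrafted cells with LPS (49.2 CPM) overlapped in the order of means (exact permutation p = 0.0571), and the steps to control host microglia (33.0 CPM) and to host microglia with LPS (18.8 CPM) did not (exact permutation p = 0.0286 for both).

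Bid (chr6:120843137-120866838, minus strand), whose product is cleaved by caspase-8 and links death receptors to mitochondria, fell with LPS in both populations. Control host microglia were tightly grouped at 65.9, 69.9, 73.4 and 69.4 CPM, and control engrafted cells at 40.3, 42.1, 47.5 and 41.4 CPM. With LPS host microglia held 25.2, 17.0, 30.2 and 51.5 CPM and engrafted cells 28.0, 20.7, 26.0 and 19.6 CPM. Control and LPS libraries did not overlap within a population, and the host LPS library of mouse 4 lay nearest to the controls. The log2 change was -1.22 in host microglia (SE 0.24, adjusted p = 0.00034) and -0.87 in engrafted cells (SE 0.25, adjusted p = 0.00997), with an interaction of 0.34 (95% interval -0.40 to 1.08).

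Without LPS, Bid was lower in engrafted cells than in host microglia (-0.65, SE 0.17, adjusted p = 0.00548). With LPS the difference was -0.31 (adjusted p = 0.594) and the libraries overlapped. In the order of means, control host microglia (69.7 CPM) stood apart from control engrafted cells (42.8 CPM; exact permutation p = 0.0286), which overlapped host microglia with LPS (31.0 CPM), as did the latter and engrafted cells with LPS (23.6 CPM; exact permutation p = 0.143 and 0.486).

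Partners of the family were taken from lists of 17 other Bcl2 relatives, 14 genes of caspases and the apoptosome, 7 of the IAP group (inhibitors of caspases and their antagonists) and 5 of mitochondrial pores and their cargo. Their counts stand beside the shares of all genes tested that passed, which were 27.3% and 17.1% between the populations without and with LPS, and 38.7% and 39.7% for LPS in engrafted cells and host microglia. Among the relatives, 4 of 10 tested passed between the populations without LPS (1 higher and 3 lower in engrafted cells) and 1 of 9 with LPS. With LPS 2 of 9 rose in engrafted cells, and in host microglia 1 of 9 rose and 1 fell. Of the caspase list, 1 of 11 passed between the populations without LPS and 2 of 11 with LPS, all higher in engrafted cells. LPS raised 1 and lowered 2 of 10 in engrafted cells, and raised 2 and lowered 3 of 12 in host microglia. Of the 33 genes of the 4 lists tested for the interaction, 0 passed in edgeR's test or in DESeq2, and 4 had an unadjusted p below 0.05 in edgeR, where 5.88% of all genes tested passed. DESeq2 called 0 of the caspase list between the populations without LPS and 1 of the relatives for LPS in host microglia, so that Apaf1 and Pmaip1, counted above, did not pass there.

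Among the IAP genes, 1 of 6 passed between the populations without LPS and a different 1 of 6 with LPS, each higher in engrafted cells. LPS raised 1 and lowered 2 of 6 in engrafted cells, and raised 1 and lowered 1 of 6 in host microglia. Of the pore list, 1 of 5 was lower in engrafted cells without LPS and 0 of 5 passed with it in edgeR's test or in DESeq2 (1 at an unadjusted p below 0.05). LPS raised 2 of 4 in engrafted cells and 1 of 5 in host microglia.

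Genes of these lists that changed over 2-fold in at least 1 comparison were Bmf, Bbc3, Pmaip1, Bcl2l2, Apaf1, Casp2, Parp1, Birc3 and Endog. Bmf, a BH3-only gene that responds to cytoskeletal stress, averaged 51.7 and 281 CPM in engrafted cells and 88.4 and 297 CPM in host microglia without and with LPS. It rose by 2.38 (SE 0.20, adjusted p = 1.06e-08) and by 1.75 (SE 0.18, adjusted p = 1.28e-07) on the log2 scale. Birc3, an NF-kappaB target that encodes an inhibitor of cell death, rose by 2.10 (adjusted p = 1.23e-06) and 1.65 (adjusted p = 1.69e-05).

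Apaf1, the scaffold of the apoptosome, averaged 29.0 and 78.4 CPM in engrafted cells and 16.8 and 32.4 CPM in host microglia. It rose by 1.46 with LPS in engrafted cells (adjusted p = 3e-04) and by 1.00 in host microglia (adjusted p = 0.00575). It was higher in engrafted cells by 0.86 without LPS (adjusted p = 0.0394) and by 1.31 with it (adjusted p = 0.00136). Endog, a mitochondrial nuclease, rose by 1.26 in engrafted cells (adjusted p = 0.00472). Its change in host microglia was 0.61 and did not pass. Parp1, a DNA repair enzyme cleaved by caspases, fell by log2 changes of -1.09 in engrafted cells (adjusted p = 0.00663) and -0.71 in host microglia (adjusted p = 0.0166). Casp2 fell by -1.22 in engrafted cells (adjusted p = 0.016), and its change in host microglia was -0.86 and did not pass.

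Bbc3, which encodes the p53-induced BH3-only protein Puma, was lower in control engrafted cells (25.8 CPM) than in control host microglia (71.4 CPM), by -1.42 (adjusted p = 4.51e-06). Bcl2l2, which encodes the anti-apoptotic Bcl-w, was higher there by 1.44 (adjusted p = 0.00546), at 20.6 against 8.21 CPM and 4 to 18 reads per library. Pmaip1, which encodes Noxa, was higher in engrafted cells under LPS by 1.20 (adjusted p = 0.0117) and fell with LPS in host microglia by -0.72 (adjusted p = 0.0351). Bax, the other effector, is named after its values were seen, because it did not change over 2-fold. It was lower in control engrafted cells (168 CPM) than in control host microglia (346 CPM) by -0.98 (adjusted p = 1.59e-06) and rose with LPS in engrafted cells by 0.93 (adjusted p = 0.00124).

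**Figure D4:**
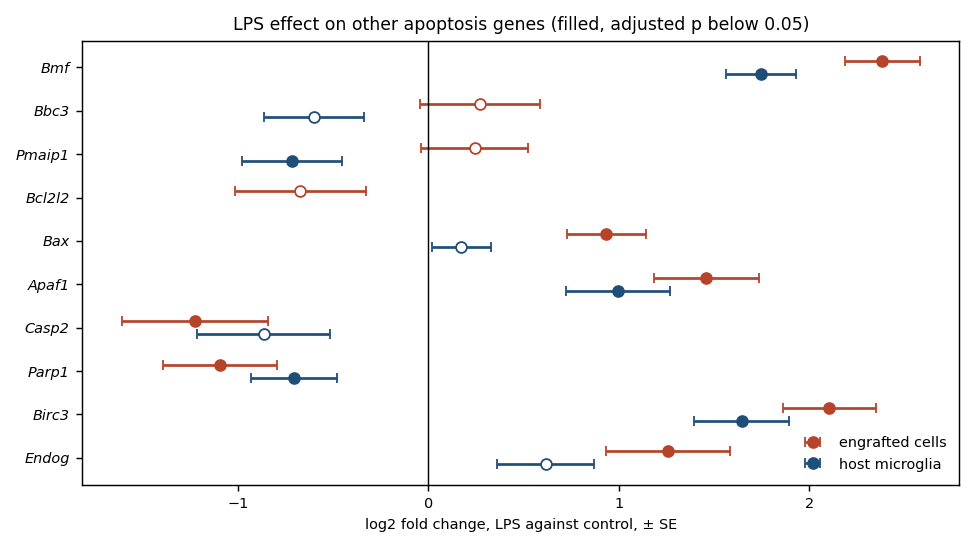
Log2 fold change with LPS and its SE (horizontal axis) in engrafted cells (red) and host microglia (blue) for the named partner genes and Bax, with filled points at an adjusted p below 0.05. Bmf and Birc3 lie highest in both populations, and Bcl2l2 has no host value because it had too few reads there.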

How the data were processed

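RNA was sequenced from 16 libraries by a derivation of MARS-seq, which captures the 3′ end of polyadenylated RNA. The values deposited by the authors are unnormalized whole-number counts of reads on each gene. Reads had been mapped to mm9 (HISAT 0.1.5 per the submitters' processing notes), uniquely mapped reads kept, and sense-strand reads on exons of 1 transcript model per gene counted with HOMER. No step that removes PCR duplicates is named in the sources used here, so limits of detection cover counting error only. The read length is not given in the sources used here.

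Groups were taken from the sample titles. Counts were tested in R 4.3.3 with edgeR 4.0.16: filterByExpr (minimum count 10, minimum total 15), TMM, the quasi-likelihood test with a prior count of 0.125, and Benjamini-Hochberg adjustment over all genes tested. Only the libraries compared entered each fit, and all 16 entered the interaction. SE were derived from the log2 fold change and its F statistic. Neighbouring groups were compared by two-sided exact permutation tests of CPM, which took all libraries as independent and did not pair those of the same mouse. The 24 pairs of replicate libraries differed by 1.98 to 8.64 times counting noise (chi-square per degree of freedom), so none was a copy.

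Both libraries of a mouse come from the same animal, as the design text states. After removal of group means, their correlation across genes was 0.083, 0.015, 0.156, 0.09, 0.007, -0.045, 0.061 and 0.059 for mice 1 to 8. The mean correlation of each engrafted library with host libraries of other mice in the same condition was -0.024, -0.003, -0.049, -0.035, 0.001, 0.011, -0.018 and -0.02. Removal of group means ties these values to the same-mouse values with the opposite sign, so they are not a separate baseline. A mouse term is not part of the study's methods, and the block was therefore an alternative.

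All 9 members are named, and from the partner lists every gene that changed over 2-fold at an adjusted p below 0.05 in at least 1 comparison. For each member averaging at least 20 CPM, the 3 genes with the highest Pearson r were listed. Marker lists of microglia, engrafted macrophages, neutrophils, monocytes, B cells, T and NK cells, dendritic cells, neurons, astrocytes, oligodendrocytes, endothelial cells and red blood cells were summed per library. Members and lists were chosen with earlier results of these data known. Alternatives were RLE size factors, library totals, DESeq2 1.42.0, no filter, a minimum of 10 reads per library, one fit of all libraries, the mouse block, summed Bcl2a1 genes and leaving out each library. Leaving out mice 4 and 8 together was chosen after seeing the data. The tests were checked on simulated counts of independent libraries with large changes in well-read genes. Smaller changes, changes in genes with few reads and paired libraries were not simulated.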

Additional observations from a re-analysis of the deposited data

Results flagged for a closer look

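Bcl2l1 in the control host library of mouse 6 stood at 138.9 CPM, apart from the other 3 libraries of its group at 187 to 190 CPM. The gap took up 0.934 of the group's range, above Dixon's critical value for 4 samples. The 9 members and the Bcl2a1 sum were examined in each of the 4 groups, 40 sets of 4 libraries in all. This was the only set to stand out, and chance alone gives about 1 in 20.

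The LPS effect differed between engrafted cells and host microglia for 3 values by the test of the interaction. For Bak1 the difference was 1.618 on the log2 scale, engrafted minus host (adjusted p = 0.00127). For Bcl2a1b it was -1.007 (adjusted p = 0.0398), and for the sum of the Bcl2a1 genes -1.017 (adjusted p = 0.0267). The last 2 share reads and are not separate evidence.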

How the results depend on the processing

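For the 8 tested members in 5 comparisons (40 results), 266 of 286 alternative values kept their direction and side of the threshold, as did 339 of 384 values with 1 library left out. Bak1 kept its calls in the interaction, in engrafted cells with LPS and between populations under LPS throughout. The block on the mouse, with libraries paired by animal, changed the call of Bcl2l1 under LPS (-0.61, adjusted p = 0.0234) and no other; Bcl2l1 there also passed with library totals (-0.757), DESeq2 (-0.583), at least 10 reads (-0.646) and one fit of all libraries (-0.604). Library totals moved the median of all genes between populations under LPS by -0.147 and the share of higher calls from 55.5 to 40.2%. Values changed sign only where no call stood, and the cause was not tested: Bcl2 without mice 4 and 8 was -0.034 between control populations and -0.011 for LPS in host microglia, and with library totals -0.03 between LPS populations and -0.029 in the interaction (-0.012 with the block). With library totals the interaction was -0.062 for Mcl1 and -0.012 for Bcl2a1a (-0.033 with the block), and Bcl2a1b in engrafted cells with LPS was -0.065 (-0.079 with at least 10 reads). Bid between LPS populations was 0.077 without mice 4 and 8. With 1 library left out the ranges were -0.103 to 0.322 (Bcl2, control populations), -0.076 to 0.296 (Bcl2, LPS populations), -0.538 to 0.033 (Bid, LPS populations) and -0.173 to 0.153 (Bcl2a1b, LPS in engrafted cells). In the interaction they were -0.2 to 0.222 for Bcl2, -0.203 to 0.079 for Bcl2l1, -0.042 to 0.111 for Mcl1 and -0.21 to 0.231 for Bcl2a1a.

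Members over 2-fold numbered 1 between control populations with the Bcl2a1 genes summed, and 1 to 3 with a library left out (1 without host mouse 5). For LPS in engrafted cells they numbered 1 with summed genes and 1 with at least 10 reads, where 3 members passed because fewer were tested. For LPS in host microglia they numbered 1 to 3 with a library left out (1 without LPS mouse 2). In the interaction 1 differed over 2-fold with RLE size factors, DESeq2, no filter and at least 10 reads, and without mice 4 and 8, where 1 passed; with a library left out 1 to 2 passed and 1 to 2 were over 2-fold. The Bcl2a1 sum was 0.468 between control populations without mice 4 and 8 (0.473 to 0.716 with a library left out). For LPS in engrafted cells it did not pass with library totals (0.535, adjusted p = 0.0553) or with at least 10 reads (0.518, adjusted p = 0.0564). With a library left out it ranged from 0.446 to 0.764. In the interaction it was -0.843 without mice 4 and 8 (-1.172 to -0.875 with a library left out). Over all genes, those over 2-fold numbered 1454 and 1352 between control and LPS populations with no filter. With at least 10 reads they numbered 402 and 381 (834 passed under LPS), 816 and 871 for LPS in engrafted cells and host microglia, and 251 in the interaction. Depth limits the members with few reads, such as Bcl2a1d (2 to 17 reads per library), Bcl2a1a (8 to 10 in control engrafted cells) and Bcl2 (5 to 52).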

Other observations

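The genes whose levels followed each member most closely over the 16 libraries are given as a description, by Pearson's r of log2(CPM + 1) among 6785 genes. The libraries fall into 4 groups, whose differences are part of r. Mcl1 was followed by Flna (0.967), Arid5a (0.964) and Man2a1 (0.962), Bcl2l1 by Wdr46 (0.917), Ctsl (0.905) and Psat1 (0.901), and Bcl2 by Zfp281 (0.849), Cox7b (0.831) and Notch2 (0.83). Bcl2a1a was followed by Tigd2 (0.964), Azin1 (0.954) and Cct6a (0.954), whereas Bcl2a1b was followed by Dab2 (0.894), Lilrb4a (0.889) and Gab2 (0.888). Bak1 was followed by Prelid1 (0.934), Glrx (0.918) and Stard7 (0.918), Bcl2l11 by Mvb12a (0.953), Mpnd (0.942) and S1pr2 (0.921), and Bid by Tmem206 (0.944), Crat (0.939) and Pip4k2a (0.939).

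Summed markers of other cells were as follows over the engrafted and then the host libraries. Microglial markers (8 genes) summed to 14530 to 16470 CPM without and 5443 to 6976 CPM with LPS in engrafted cells, and to 22180 to 25220 CPM and 11510 to 12510 CPM in host microglia. Markers of engrafted macrophages (5 genes) summed to 46770 to 93430 CPM in engrafted and 2975 to 7552 CPM in host libraries. B cell markers reached 74.2 CPM, with Cd79a and Pax5 at 0 in every library, T and NK cell markers 25.2 CPM, dendritic cell markers 31.1 CPM, endothelial markers 31.3 CPM and neuronal markers 127 CPM. Astrocyte markers summed to 8.95 to 24.7 CPM in engrafted and 146 to 264 CPM in host libraries, of which Slc1a3 averaged 206 and 177 CPM in host microglia without and with LPS while the other 4 genes averaged at most 5 CPM in each group. Oligodendrocyte markers summed to 61.5 to 148 CPM in all.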
